A study of Mus musculus with 16 samples.

Results

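Genomic imprints of maternal origin are CpG-rich regions that are methylated in the oocyte and not in sperm, and that keep this difference in the embryo, where the methylated maternal copy of the associated transcript is silent. A set of 5 of the smaller ones was examined here, at Mcts2, Nnat, the Inpp5f variant, Peg13 and Slc38a4. The rule that defines them is their published interval in GRCm38 and uses no measured value, although the set was proposed with results of these data known. Methylated and unmethylated calls were pooled over each interval in every sample, for 5 regions among the 218689 runs of 100 CpGs (tiles) that make up the genome in this study. On each side of a region, 20 kb of flank were measured the same way, which gave 10 flanks.

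The data were CpG methylation calls of 16 libraries, each made by post-bisulfite adapter tagging (PBAT) from 1 pool of mature (MII) oocytes, whose donors were F1 mice from the strains C57BL/6J and CBA/Ca. The 4 IFC pools came from preantral follicles of 13-day-old females grown for 10 days in culture with recombinant FSH and triggered in vitro with recombinant hCG and EGF, so that the labels give 23 days of age. The 5 SO pools came from 23-day-old females that received 2.5 IU of eCG and, 48 h later, of hCG. The 4 SOA pools came from 10-week-old females given 5 IU of each hormone, and the 3 IV pools from 10-week-old females that ovulated naturally. The dose therefore changed together with the age between SO and SOA, while IFC and SO share the labelled age and differ both in growth in culture or in the ovary and in the hormones given, which cannot be told apart. The labels give oocytes as the cell type of every library, although their lysis protocol names a blastocyst as the sample, and marker genes could not be used to check this in methylation data.

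Methylation of oocyte DNA is laid down during oocyte growth, mostly over transcribed genes, by DNMT3A with its cofactor DNMT3L. After fertilization, the zinc finger protein ZFP57 binds the methylated form of the hexamer TGCCGC in imprinted regions and protects the mark while most other oocyte methylation is lost. Imprints of this kind that lie in an intron of a larger, biallelically expressed host gene are called microimprinted. The annotation placed 4 of the 5 regions inside a host gene. The Mcts2 region (chr2:152686605-152687312, 708 bp) covered the start of Mcts2, an intronless retrogene of the translation factor family MCTS, inside H13, which encodes the signal peptide peptidase, and its left end overlapped an exon of a shorter H13 transcript. The Nnat region (chr2:157559824-157561662, 1839 bp) covered the starts of Nnat, which encodes the small membrane protein neuronatin, inside Blcap on the opposite strand, and also the start of 1 Blcap transcript, whose first exon it overlapped. The Inpp5f variant region (chr7:128688101-128688640, 540 bp) covered the start of 2 shorter transcripts of Inpp5f, a phosphoinositide phosphatase gene. It also covered the annotated start of Gm43580, a processed pseudogene. The Peg13 region (chr15:72806333-72811148, 4816 bp) covered the start of Peg13, a non-coding RNA inside Trappc9, whose product belongs to a vesicle tethering complex. The Slc38a4 region (chr15:97054050-97056118, 2069 bp) differed from the others in that it covered the start of the gene itself, which encodes an amino acid transporter, and lay in no host.

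The regions were dense in CpGs. They held 51 CpGs at Mcts2, 95 at Nnat, 40 at the Inpp5f variant, 140 at Peg13 and 96 at Slc38a4, or between 2.91 CpGs per 100 bp at Peg13 and 7.41 at the Inpp5f variant. Their flanks held between 0.823 and 1.76 per 100 bp. Windows of 200 bases from each region are shown next, to make visible how the hexamer of ZFP57 is placed in them. Each was the window outside annotated untranslated regions with the most hexamers and then the most CpGs, taken from the RefSeq copy of GRCm38 (plus strand, 5′ to 3′), and the capitals mark TGCCGC or its reverse complement GCGGCA.
Mcts2, chr2:152686786-152686985: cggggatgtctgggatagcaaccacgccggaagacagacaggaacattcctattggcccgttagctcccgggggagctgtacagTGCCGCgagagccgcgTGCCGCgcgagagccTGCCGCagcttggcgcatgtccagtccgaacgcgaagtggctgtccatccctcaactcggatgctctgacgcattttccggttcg
Nnat, chr2:157560327-157560526: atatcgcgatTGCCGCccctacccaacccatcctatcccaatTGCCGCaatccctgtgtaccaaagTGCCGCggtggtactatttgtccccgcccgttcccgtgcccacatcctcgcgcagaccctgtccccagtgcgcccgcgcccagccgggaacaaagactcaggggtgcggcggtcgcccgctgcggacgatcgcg
Inpp5f variant, chr7:128688255-128688454: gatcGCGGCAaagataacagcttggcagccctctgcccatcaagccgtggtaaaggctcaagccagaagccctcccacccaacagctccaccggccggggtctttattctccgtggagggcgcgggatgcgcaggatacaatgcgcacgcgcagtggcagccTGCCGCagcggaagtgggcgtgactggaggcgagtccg
Peg13, chr15:72809924-72810123: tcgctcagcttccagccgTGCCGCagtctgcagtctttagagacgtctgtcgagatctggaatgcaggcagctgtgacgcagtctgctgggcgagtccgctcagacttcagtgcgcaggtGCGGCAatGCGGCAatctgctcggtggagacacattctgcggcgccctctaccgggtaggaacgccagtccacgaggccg
Slc38a4, chr15:97054514-97054713: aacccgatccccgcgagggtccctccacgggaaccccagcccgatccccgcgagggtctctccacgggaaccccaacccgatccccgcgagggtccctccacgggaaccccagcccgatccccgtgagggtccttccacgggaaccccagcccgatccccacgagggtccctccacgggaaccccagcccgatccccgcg

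On both strands, TGCCGC occurred 3 times in the Mcts2 region, 5 times in Nnat, 3 times in the Inpp5f variant, 5 times in Peg13 and once in Slc38a4. In the printed windows there were 3, 3, 2, 3 and 0, since the hexamer of the Slc38a4 region lies in the untranslated first exon of the gene. At least 1 hexamer was found in 4.03% of all genomic windows as long as the Mcts2 region, 9.78% of those as long as Nnat, 3.11% for the Inpp5f variant, 22.4% for Peg13 and 10.9% for Slc38a4. As many as in the region itself were found in 0.0449%, 0.0244%, 0.0257%, 0.145% and 10.9% of them. These shares describe the letters of the sequence and take no account of its CpG density. The Slc38a4 window was built of copies of a 37-base unit, with 152 of 163 bases (93.3%) equal to the base 37 positions on, against 34% to 36.1% at the best shift between 10 and 60 bases in the other windows. The CpGs inside the 17 hexamers had 131 calls in all libraries together, of which 126 were methylated (96.2%, 95% Wilson interval 91.4 to 98.4). The interval covers counting error only, since reads of 1 library need not come from independent molecules. A single hexamer, at the Inpp5f variant, had no call.

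Depth limits every value here. The libraries held 5218053 to 23065411 calls, and 7 of the 16 held more than 10000000. All 4 IFC pools were below that figure, while all IV pools were above it, at 15644144 to 17275310 calls. Of the SOA pools, SOA4 alone was above it. Depth and group therefore overlapped, also in SOA vs IV. Over the 5 regions, a sample had between 0 and 169 calls in a region, and 74 of the 80 values rested on at least 5 calls and were used. The 16 samples all remained at Nnat and Peg13, 15 at Mcts2, 14 at Slc38a4 and 13 at the Inpp5f variant, where only 2 SOA pools remained. IV1 stood apart. In tiles with a mean below 20% in the other groups, IV1 had a mean methylation of 15.6%, against 6.71% to 11% in the other 15 libraries, and in tiles above 80% it had 88.5%, against 89.8% to 92.9%. Values of the regions in IV are given with and without it, and with or without it 0 tiles at the regions, at the flanks and in the Slc38a4 gene were called by the logistic fit in SOA vs IV.

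All 5 regions were highly methylated in all 4 groups. Of the 74 values, 66 were at least 90%, and 65 of 69 without IV1. By comparison, of 14995 CpG-dense regions of the genome with at least 20 calls over all libraries (50 or more CpGs in a row, on average no more than 20 bp apart), 80.4% were below 20% methylated and 6.11% above 80%. The Inpp5f variant, with 40 CpGs, has fewer than that definition asks. Peg13 and Slc38a4 as a whole, with 2.91 and 4.64 CpGs per 100 bp, are sparser. Pooled over the 5 regions, methylation ranged from 94.3% to 98.4% in the IFC pools, from 94.2% to 97.9% in SO and from 95.1% to 98.3% in SOA. IV3 was at 97.1% and IV2 at 92.2% (226 of 245 calls, Wilson interval 88.2 to 95), while IV1 was at 80.1% (286 of 357 calls, 75.7 to 83.9). The interval of IV1 overlapped that of no other library.

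**Figure D1:**
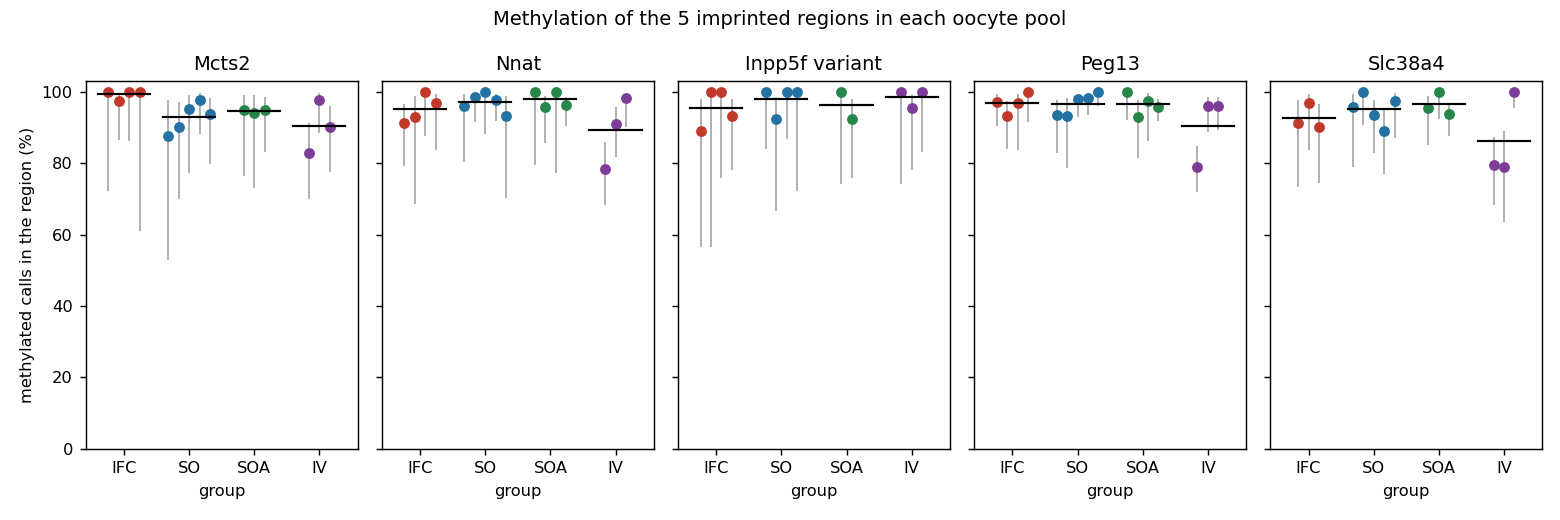
Methylated calls as a percentage of all calls in each of the 5 regions (y axis) for every oocyte pool with at least 5 calls, by group (x axis); grey bars are 95% Wilson intervals of the calls and black lines the group means. Points lie at or near the top in every panel, and the lowest ones, between 78.3% and 83.0%, belong to IV1 at Mcts2, Nnat, Peg13 and Slc38a4 and to IV2 at Slc38a4.

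At Mcts2, the 4 IFC pools were at 100%, 97.4%, 100% and 100%. The 5 SO pools were at 87.5%, 90%, 95.2%, 97.7% and 93.8%, and the 3 SOA pools with enough calls at 95%, 94.1% and 94.9%. The IFC values lay above all SOA values, and IFC2 alone fell below the highest SO pool, SO4. The mean of IFC was 99.3% ± 1.32 (SD, n = 4), that of SO 92.8% ± 4.09 (SD, n = 5) and that of SOA 94.7% ± 0.477 (SD, n = 3). IFC was 6.50 points higher than SO (two-sided exact permutation test, p = 0.0238) and 4.68 points higher than SOA (exact p = 0.0286, the smallest that 4 pools against 3 allow), and these comparisons share the IFC pools. They were the only comparisons of the 20 over the 5 regions with p below 0.05, and they are not adjusted for that number. The region had between 6 and 38 calls in the IFC pools and between 8 and 44 in the SO pools. With the calls of a group pooled, 77 of 78 were methylated in IFC (98.7%), against 118 of 125 in SO (94.4%) and 74 of 78 in SOA (94.9%). The logistic fit with all tiles did not call the IFC and SO difference (adjusted p = 0.406 by the likelihood-ratio test), and widening the interval by 200 bp on each side reduced it to 2.32 points (exact p = 0.413) and the difference from SOA to 1.10 points (exact p = 0.629). Leaving out any single pool other than SO4 raised the exact p of IFC vs SO above 0.05, to between 0.0536 and 0.0714. The IV pools were at 83.0%, 97.8% and 90.2%, a mean of 90.3% ± 7.40 (SD, n = 3), or 94.0% ± 5.33 (SD, n = 2) without IV1.

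At Nnat, the IFC pools were at 91.1%, 92.9%, 100% and 96.8%, the SO pools at 96.0%, 98.4%, 100%, 97.6% and 93.3%, and the SOA pools at 100%, 95.7%, 100% and 96.2%. These 3 groups overlapped throughout, with means of 95.2% ± 3.99 (SD, n = 4), 97.1% ± 2.54 (SD, n = 5) and 98% ± 2.34 (SD, n = 4). The IV pools were at 78.3%, 91.0% and 98.1%, and only IV1 lay below the lowest pool of the other groups by more than 1 point. SOA was 8.81 points above IV (exact p = 0.114, where 4 pools against 3 cannot go below 0.0286). The IV mean was 89.2% ± 10.0 (SD, n = 3), or 94.6% ± 5.02 (SD, n = 2) without IV1.

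At Peg13, the region with the most calls, the IFC pools were at 97.2%, 93.3%, 96.8% and 100%, the SO pools at 93.6%, 93.3%, 98%, 98.1% and 100%, and the SOA pools at 100%, 93.0%, 97.3% and 95.9%. The 3 means lay within 0.288 points of each other, at 96.8% ± 2.73 (SD, n = 4), 96.6% ± 2.98 (SD, n = 5) and 96.5% ± 2.91 (SD, n = 4). The IV pools were at 79.1%, 95.9% and 96.1%, so that again IV1 alone was low. The difference of SOA minus IV was 6.20 points (exact p = 0.286), and IV without IV1 had a mean of 96.0% ± 0.151 (SD, n = 2).

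At the Inpp5f variant, 8 of the 13 pools with enough calls were at 100%. IFC was at 88.9%, 100%, 100% and 93.1%, SO at 100%, 92.3%, 100% and 100%, the 2 SOA pools at 100% and 92.3%, and IV at 100%, 95.5% and 100%. This was the only region where IV1 was not low, with 11 of 11 calls methylated. The means were 95.5% ± 5.48 (SD, n = 4), 98.1% ± 3.85 (SD, n = 4), 96.2% ± 5.44 (SD, n = 2) and 98.5% ± 2.62 (SD, n = 3, or 97.7% ± 3.21 with n = 2 without IV1), and no comparison had a p below 0.7 (exact permutation). With 2 SOA pools no test against them could go below 0.0667.

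At Slc38a4, 3 IFC pools were at 91.3%, 96.8% and 90%, the SO pools at 95.7%, 100%, 93.6%, 89.1% and 97.5%, and 3 SOA pools at 95.6%, 100% and 93.8%. Means were 92.7% ± 3.59 (SD, n = 3), 95.2% ± 4.12 (SD, n = 5) and 96.4% ± 3.22 (SD, n = 3), and the groups overlapped. Of the IV pools, 2 were low here, IV1 at 79.4% (54 of 68 calls) and IV2 at 78.9% (30 of 38 calls), while IV3 was at 100% (81 of 81). SOA minus IV was 10.3 points (exact p = 0.4), where 3 pools against 3 cannot go below 0.1. Without IV1 the difference was 6.96 points (exact p = 0.5), and the mean of IV 89.5% ± 14.9 (SD, n = 2) in place of 86.1% ± 12 (SD, n = 3).

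The logistic fit over all tiles and intervals, which takes each call as independent, gave adjusted p = 0.0249 for Nnat and 0.00604 for Peg13 in SOA vs IV, with differences between means of position percentages of 8.94 and 5.94 points. Without IV1 they were 3.24 points (adjusted p = 0.726) and 1.31 points (adjusted p = 0.977). All stayed under the limit of 20 points used for a call. The regions of the Inpp5f variant and Slc38a4 could not be fitted in any comparison, and Mcts2 only in IFC vs SO, because a pool had fewer than 5 covered positions. None of the 40 comparisons of flanks had p below 0.05 in the exact test, and the lowest was 0.0794. In the logistic fit, the left flank of Mcts2 reached adjusted p = 0.0468 in SO vs SOA, with a difference of 5.84 points (exact permutation p = 0.238).

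Within a region, single CpGs were also mostly methylated. Over all libraries together, 134 CpGs of the 5 regions had at least 10 calls, 65 of them were methylated in every call and 7 were below 80%. Of these 7, 3 adjoining CpGs of Peg13, 372 to 380 bp from the left edge of the region, were at 78.6%, 78.6% and 75.0%, and rose to 100%, 100% and 90.9% when the calls of IV1 were left out. A CpG of Mcts2, 410 bp from the left edge, had 4 of 6 calls methylated on each strand, and without IV1 it had 6 of 10. In Slc38a4, the CpG 47 bp from the left edge had 6 of 10 calls methylated, all from 1 strand, and 6 of 8 without IV1. The reads were aligned to the C57BL/6J sequence, so that a CBA/Ca base T in place of C reads as an unmethylated call, and its part in these values was not tested. Where each region was split into 3 equal parts, the lowest part was the left one of Mcts2, at 88.2% over all libraries and 90.9% without IV1.

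The next comparison asked whether the regions stood out from the DNA around them. Taken against both 20-kb flanks in the same sample, all 5 were higher. The mean difference was 15.9 points at Mcts2 (higher in 15 of 15 pools, exact sign-flip p = 6.1e-05), 21.7 at Nnat (16 of 16, exact p = 3.05e-05), 7.17 at the Inpp5f variant (11 of 13, exact p = 0.00146), 3.36 at Peg13 (13 of 16, exact p = 0.00894) and 32.5 at Slc38a4 (14 of 14, exact p = 0.000122). At Mcts2, Nnat and Slc38a4 these are the smallest p that the number of pools allows. Without IV1 the differences were 16.5, 22.7, 6.54, 4.15 and 33.6 points. On reference CpGs only, the difference at Peg13 over all pools fell to 1.91 points (exact sign-flip p = 0.0883).

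With narrower flanks, 4 of the 5 differences were lost. Flanks of 5 kb gave 1.57 points at Mcts2 (exact p = 0.209), 2.70 at the Inpp5f variant (exact p = 0.118), 0.203 at Peg13 (exact p = 0.892) and -2.77 at Slc38a4 (exact p = 0.135). At 10 kb the values for the same 4 were 1.37 (exact p = 0.247), 2.5 (exact p = 0.106), 1.84 (exact p = 0.131) and 1.94 points (exact p = 0.275). Nnat alone kept its difference, with 30.7 points at 5 kb and 33.0 at 10 kb (both exact p = 3.05e-05). Its contrast lay on 1 side. The left flank of Nnat was as methylated as the region, with a difference of -0.539 points (exact p = 0.687), and the right flank was 49.7 points lower.

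Bins of 2 kb located these changes. Around Mcts2, with the calls of all libraries pooled, methylation stayed between 82.9% and 97.1% in the 8 bins to the left and the 10 bins to the right, and dropped to 1.56% (15 of 960 calls) in the bin centred 17 kb to the left, which holds the annotated start of H13. Around Nnat, the 10 bins to the left were between 93.2% and 97.8% and the first to the right at 90.6%. The bin centred 5 kb to the right, within Blcap, was at 3.47% (29 of 835 calls), and methylation was back at 92.0% in the bin centred at 13 kb. Around the Inpp5f variant, all bins were above 76% except the one centred 13 kb to the right, beyond the end of Inpp5f, with 32.4% (77 of 238 calls). Around Peg13, the bins were at 77.6% or more, except the one centred 17 kb to the right, where 0 of only 5 calls were methylated. Mcts2, the Inpp5f variant and Peg13 thus lay inside a stretch of high methylation that reached at least 12 kb on either side, and Nnat at the right end of one.

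**Figure D2:**
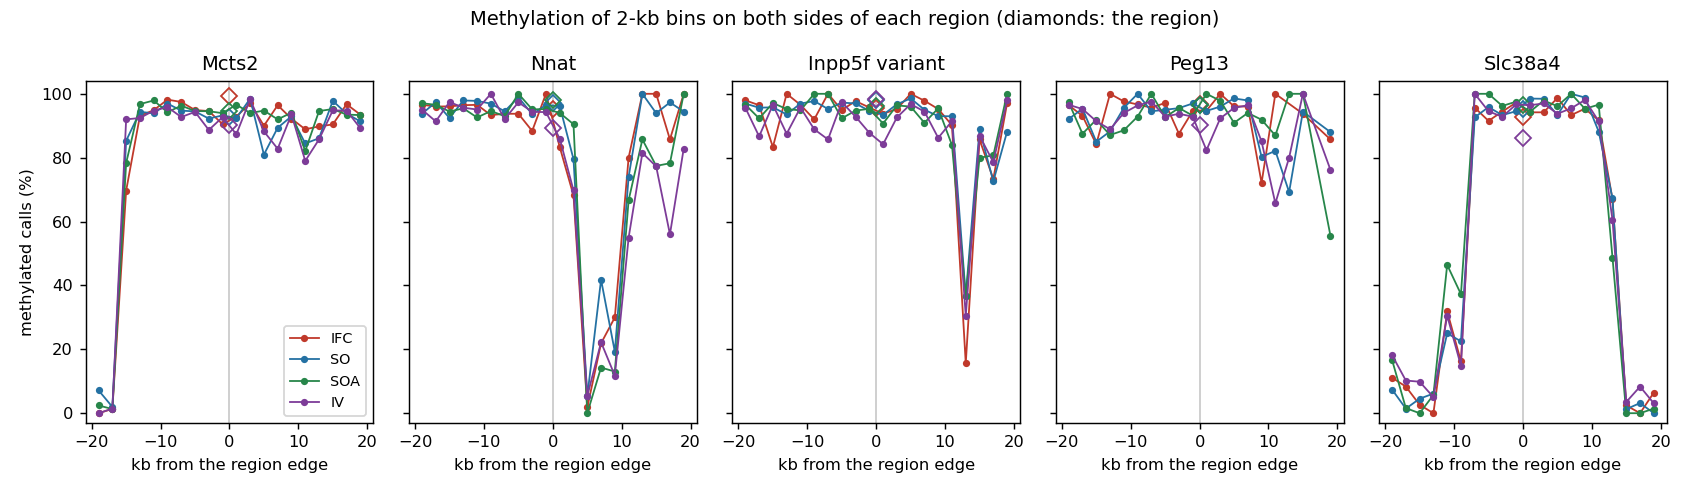
Methylated calls as a percentage of all calls in 2-kb bins (y axis) by distance from the region edge in kb (x axis) for each group, bins with at least 5 calls; diamonds at 0 are the means of the region. The lines of the 4 groups lie close together near the regions, and the falls below 50% lie 16 kb or more to the left of Mcts2, between 4 and 10 kb to the right of Nnat, at 13 kb to the right of the Inpp5f variant and on both sides of Slc38a4.

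At Slc38a4 the stretch of high methylation ended within the flanks on both sides. The 4 bins to the left of its region, which run into the gene, were between 94.0% and 96.8% and the 6 bins to the right, upstream of the gene, between 91.7% and 97.5%. On the left, the bin centred at 9 kb was at 23.0% and the one at 13 kb at 4.95% (25 of 505 calls). On the right, the bin at 13 kb was at 61.5% and the one at 15 kb at 1.79% (4 of 223 calls). The region therefore sat in a methylated block that reached 8 kb beyond its left edge and 12 kb beyond its right edge.

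Tiles were then compared across the genome by the logistic fit, in which group was the sole variable. A tile was called at an adjusted p below 0.05 (Benjamini-Hochberg over all informative tiles and the 15 intervals) together with a difference of at least 20 points between group means. Over all tiles, 1.12% were called in IFC vs SO, 1.87% in SO vs SOA, 0.35% in SOA vs IV and 3.83% in IFC vs SOA. Of the 35 informative tiles that overlapped the 5 regions and their flanks, 1 was called in IFC vs SO, 1 in SO vs SOA, 0 in SOA vs IV and 0 in IFC vs SOA, which is near the background. At an adjusted p below 0.05 alone there were 1, 1, 2 and 0, against 4.46%, 9%, 6.46% and 11.4% of all tiles. At an unadjusted p below 0.05 there were 3, 3, 5 and 2, against 16.9%, 21.7%, 22.1% and 24% of all tiles, so that these tiles did not exceed the background. The quasi-binomial F test and limma called 0 of them in each comparison. Replicate pools differed from each other more than sampling of calls gives, with a mean chi-square of 1.6 to 3.38 per tile where sampling alone gives 1, so that these p-values are too small.

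The called tile was the same in both comparisons, and the comparisons share the SO pools. It lay in intergenic sequence beyond Blcap, to the right of Nnat, at chr2:157578453-157590191, centred 22.7 kb from the region. The SO pools were at 81.2%, 83.3%, 59.0%, 75.0% and 90.9%. IFC was at 61.9%, 56.7%, 66.7% and 38.1%, SOA at 45.8%, 50%, 59.1% and 46.5%, and IV at 56.5%, 40.6% and 48.3%. The SO pools were thus highest, with SO3 inside the range of IFC and just below the highest SOA pool. SO was 22.1 points above IFC (adjusted p = 0.0126) and 27.5 points above SOA (adjusted p = 2.11e-05). With the dispersion of each tile in the model (quasi-binomial F test), neither passed (adjusted p = 0.65 and 0.195).

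Beyond the flank, tiles in the body of Slc38a4 differed between groups in the logistic fit, though none of these calls held in the quasi-binomial F test (adjusted p from 0.18 to 0.441) or in limma (adjusted p from 0.171 to 0.245). The gene held 11 informative tiles. Of these, 3 neighbouring ones were called in IFC vs SO, all higher in IFC, and 2 of the same 3 in IFC vs SOA, while this logistic fit called 0 in SO vs SOA and 0 in SOA vs IV. At an adjusted p below 0.05 alone, 4 of the 11 passed in IFC vs SO and 6 in IFC vs SOA. The counts in SO vs SOA and SOA vs IV were 0 and 1. At an unadjusted p below 0.05 there were 6, 7, 2 and 7 in the same order. The shares of all tiles at both thresholds are given above. The 3 called tiles ran from 35.2 to 52.0 kb downstream of the annotated start of the gene. The first of them, nearest to the start, holds the annotated starts of 2 shorter transcripts of Slc38a4, 35.6 and 36.0 kb downstream of the gene start.

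In the tile centred 43.1 kb downstream (chr15:97009917-97015718), the IFC pools were at 52.6%, 70%, 27.6% and 23.2%. The SO pools were at 5.56%, 3.33%, 7.11%, 8.22% and 11.6%, the SOA pools at 8.70%, 20.3%, 8.93% and 6.88%, and the IV pools at 27.7%, 11.3% and 12.3%. Every IFC pool lay above every SO and SOA pool, and IV1 lay among the IFC pools. The mean of IFC was 43.4% ± 22.0 (SD, n = 4), against 7.17% ± 3.10 (SD, n = 5) for SO, 11.2% ± 6.14 (SD, n = 4) for SOA and 17.1% ± 9.21 (SD, n = 3) for IV. IFC was 36.2 points above SO (logistic fit, adjusted p = 2.06e-25) and 32.2 points above SOA (adjusted p = 1.26e-18).

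In the tile centred 49.0 kb downstream (chr15:97003945-97009911), the IFC pools were at 39.4%, 45.5%, 61.1% and 11.6%. SO lay between 1.92% and 7.01%, SOA between 0% and 14.0%, and IV between 5.19% and 12.9%. Of the IFC pools, 3 lay far above all others, and IFC4 lay above SO but below SOA1 and IV1. The difference was 35.3 points from SO (adjusted p = 2.11e-11) and 32.2 from SOA (adjusted p = 2.39e-09). In the tile centred 37.7 kb downstream (chr15:97015729-97020710), IFC was at 27.7%, 35.7%, 23.1% and 5.69%, with SO between 0% and 3.37%, SOA between 2.56% and 5.26%, and IV between 2.58% and 17.9%. It was called against SO, by 20.9 points (adjusted p = 3.68e-12), and missed the limit of 20 points against SOA, with 18.8 points (adjusted p = 1.89e-06).

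**Figure D3:**
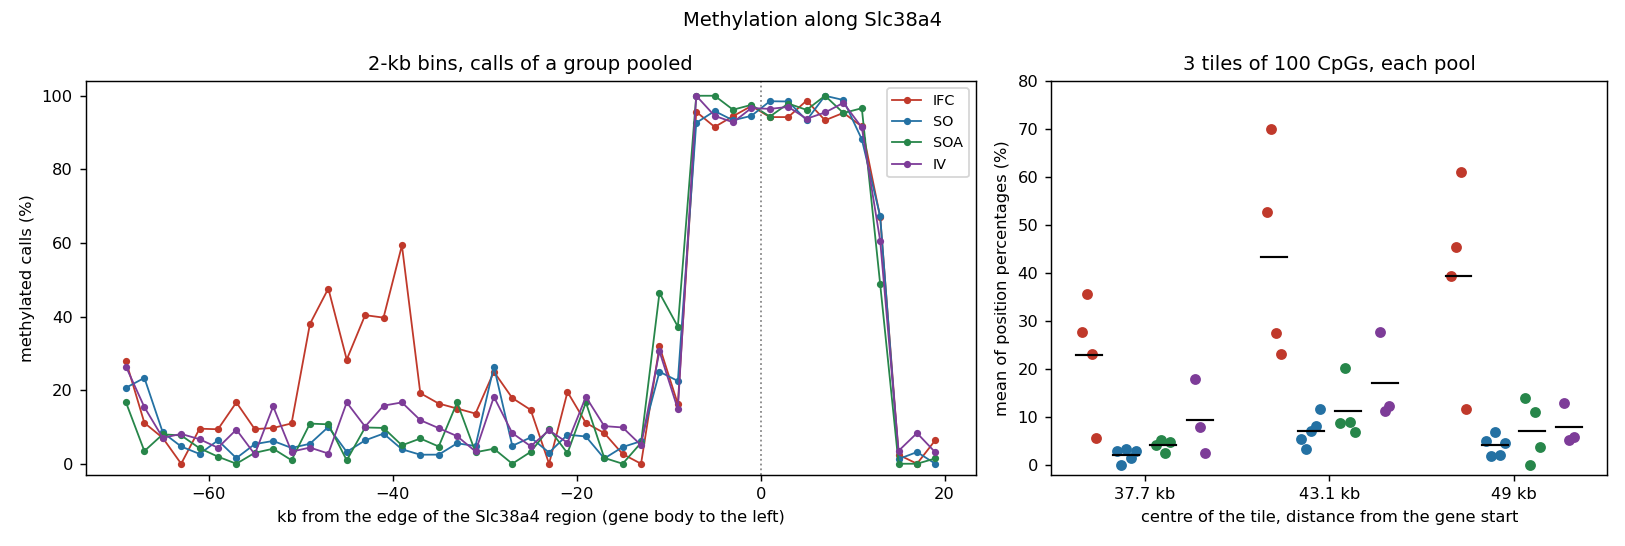
Left, methylated calls in percent (y axis) in 2-kb bins by distance from the edge of the Slc38a4 region in kb (x axis), calls of a group pooled; right, the 3 called tiles in every pool, as the mean of position percentages (y axis) by the distance of the tile centre from the gene start (x axis), with black lines for group means and the same colours. The groups run together over the methylated block at 0, and IFC alone rises to between 28.3% and 59.3% in the bins from 39 to 49 kb to the left.

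Along the gene, the difference was not uniform. In bins of pooled calls, IFC was at 59.3% (54 of 91 calls) in the bin centred 39 kb to the left of the region, where SO was at 3.93% (7 of 178), SOA at 5.00% (5 of 100) and IV at 16.7% (20 of 120). This IV value includes IV1, the highest IV pool in the tiles centred 43.1 kb (27.7%) and 37.7 kb (17.9%) from the gene start. In the bin centred 51 kb to the left IFC was at 11% (8 of 73), and SO at 4.29%. Smaller differences lay on both sides of the called tiles. In the tile centred 59.9 kb from the gene start, IFC was at 13.1%, SO at 4.63%, SOA at 1.84% and IV at 7.97%. The logistic fit gave adjusted p = 0.0158 against SO and 0.000365 against SOA. In the tile at 31.1 kb, IFC was at 17.5%, SO at 8.04% (adjusted p = 0.204) and SOA at 5.18% (adjusted p = 0.00152). Over the first tiles of the gene, IFC and SO were close or IFC was lower, with 95.5% against 96.6% in the tile centred 2.75 kb from the gene start, 81.6% against 87.4% at 8.30 kb and 8.88% against 8.79% at 14.9 kb, and no adjusted p there was below 0.05. Depth moves with group here, since all 4 IFC pools had fewer than 10000000 calls, and its part in the difference was not tested.

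None of the 3 Slc38a4 tiles passed the quasi-binomial F test, with adjusted p from 0.276 to 0.441 against SO and of 0.18 and 0.3 against SOA (unadjusted p from 0.000587 to 0.0248), a test that called 0 tiles of the genome in IFC vs SO (15207 at an unadjusted p below 0.05, and 136 called by limma) and 231 in IFC vs SOA. Limma, which called 2252 tiles in IFC vs SOA, did not call them either (adjusted p from 0.206 to 0.245 against SO and of 0.171 and 0.194 against SOA). In the logistic fit, all 3 tiles stayed called against SO whichever pool was left out, except that 2 of the 3 did without IFC1 or without IFC2. Against SOA both tiles stayed called without any 1 pool, and without IFC4 a further tile was called.

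Whole gene bodies were compared for 15 genes, the members with their hosts and neighbours: H13, Mcts2, Blcap, Nnat, Ctnnbl1, Inpp5f, Bag3, Trappc9, Peg13, Kcnk9, Chrac1, Ago2, Slc38a4, Slc38a2 and Slc38a1. The logistic fit called 0 of them in each comparison. Their differences lay between -12.9 and 12.1 points. Under the limit of 20 points, the quasi-binomial F test and limma could therefore call none either. The background over all genes was 1.01% in IFC vs SO, 1.53% in SO vs SOA, 0.719% in SOA vs IV and 2.85% in IFC vs SOA. An adjusted p below 0.05 without the limit of 20 points was reached by 6 of 15 in IFC vs SO (4 higher in IFC, 2 lower), by 3 of 14 in SO vs SOA (all higher in SO), by 7 of 14 in SOA vs IV (4 higher in SOA, 3 lower) and by 8 of 14 in IFC vs SOA (6 higher in IFC, 2 lower). Over all genes, 16.6%, 22.2%, 21.8% and 26.1% reached it. At an unadjusted p below 0.05 there were 6, 3, 9 and 11, against 28.4%, 32.7%, 34.1% and 36.1% of all genes. Without IV1, an adjusted p below 0.05 in SOA vs IV was reached by Trappc9 (1.72 points, adjusted p = 0.000715) and Chrac1 (8.77 points, adjusted p = 0.00692). The SOA pools of Chrac1, at 69.8%, 32.1%, 65.7% and 59.4%, spanned IV2 (45.4%) and IV3 (50.6%). Those of Trappc9, from 91.2% to 93.3%, lay above IV2 (89.8%) and IV3 (90.7%). For gene bodies too, the logistic fit takes each call as independent, so that its p-values leave out the spread between pools. The medians of the differences over the list were -0.0908, -0.0526, 1.68 and 1.2 points.

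Of the hosts of the 4 nested imprints, 3 were above 80% over their whole length in each group. H13 lay between 84.3% (IV) and 85.1% (SOA), and Trappc9 between 89.2% (IV) and 92.9% (IFC). Inpp5f, in the order IFC, SO, SOA and IV, was at 87.7%, 87.9%, 82.9% and 80.7%, with SO 4.99 points above SOA (logistic fit, adjusted p = 0.000215). Its SO pools, from 81.9% to 91.0%, overlapped its SOA pools, from 77.0% to 88.6%. Blcap, the host of Nnat, was lower in IFC, at 54.6%, than in SO, at 66.8% (difference -12.2 points, adjusted p = 0.000607), while SOA was at 61.5% and IV at 58.7%. The SOA pools of Blcap ranged from 46.9% to 72.1% and so spanned all IFC pools, which were between 50% and 57.1%. The body of Mcts2 overlaps the region only in part. Over this body, 59 of 61 calls were methylated in IFC and 59 of 61 in SO (adjusted p = 1). As means of position percentages, IFC was at 92.3% and SO at 96.7%, so that the higher value of IFC in the region was not seen in the body. The body of Nnat was at 97.5% in SOA and 86.7% in IV (adjusted p = 0.0011), and that of Peg13 at 96.5% and 91.1% (adjusted p = 0.00099). Without IV1 these differences were lost, with IV at 93.5% for Nnat (adjusted p = 0.57) and at 96.8% for Peg13 (adjusted p = 0.886).

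Slc38a4 had the largest difference between group means of the listed genes with at least 100 calls in every sample, with IFC at 35.2%, SO at 23.1%, SOA at 25.9% and IV at 26%. By pool, IFC was at 36.3%, 44.9%, 35.8% and 23.7%, SO between 20.4% and 27.0%, SOA between 17.0% and 34.1% and IV at 33.7%, 21.4% and 22.8%. IFC4 therefore lay within the range of SO, and IFC was 12.1 points above SO as a whole (adjusted p = 1.38e-14). Among 6715 genes with as many calls, the 3 whose gene-body methylation varied most like Slc38a4 over the 16 pools were St6galnac5 (r = 0.89), Srpx (r = 0.888) and Scel (r = 0.886). Their group means for IFC, SO, SOA and IV were 24.6%, 20.6%, 20.4% and 20.6% at St6galnac5, 37.3%, 27.5%, 27.2% and 28.3% at Srpx, and 34.3%, 29.0%, 31.7% and 29.5% at Scel. These points share their libraries, and with so many genes compared some high values of r come with the search.

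The values of IV1 were set against its library as a whole. In its 5 regions together IV1 was the lowest of the 16 pools, and in unmethylated tiles it was the highest, so that it departed from the other pools in both directions. IV2, with 92.2% in the regions, had 8.37% in unmethylated tiles, within the range of the other pools.

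**Figure D4:**
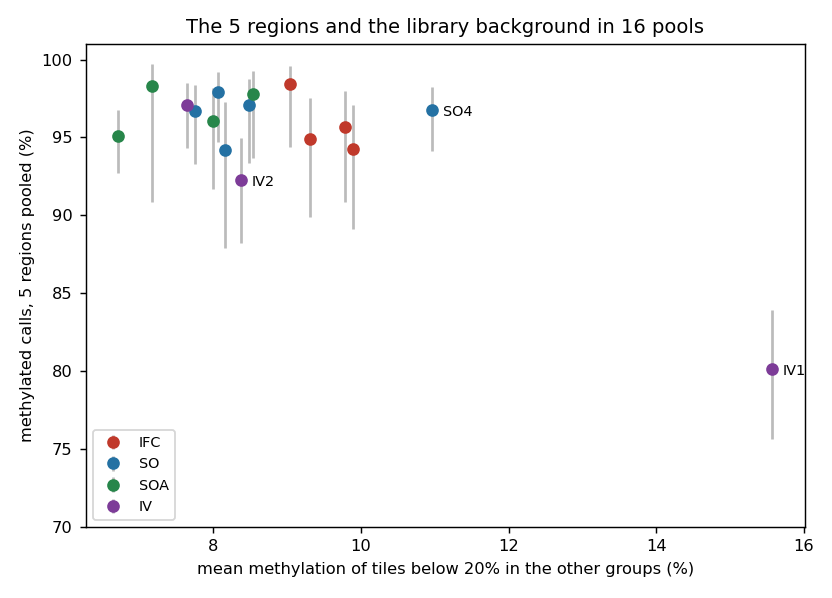
Methylated calls in the 5 regions pooled, in percent with 95% Wilson intervals (y axis, starting at 70%), against the mean methylation of tiles that were below 20% in the other groups (x axis, percent) for the 16 pools, coloured by group. IV1, at 80.1% and 15.6%, lies away from the other 15 pools, which are between 92.2% and 98.4% and between 6.71% and 11%.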

How the data were processed

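CpG methylation was measured by PBAT in 16 pools of mouse MII oocytes (4 IFC, 5 SO, 4 SOA and 3 IV). Per the labels and the study's methods, the authors trimmed the reads (Trim Galore 0.4.4, cutadapt 1.9.1), aligned them to GRCm38 with Bismark 0.19.0 and removed duplicates. Each deposited table has a line per covered position and strand, giving the percent methylation and the 2 counts behind it (methylated, unmethylated), which the authors did not normalize. The percent column equalled the counts within 0.01 points everywhere.

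Counts were pooled over the 5 intervals and their 20-kb flanks. Values with fewer than 5 calls were left out. Groups were compared by two-sided exact permutation tests over pools, and regions with flanks by exact sign-flip tests within pools. The study describes the pools of a group as biological replicates. All 218689 tiles of 100 reference CpGs and 55450 gene bodies (GENCODE M21) were screened, and the 197315 to 199821 tiles and 26513 to 27681 genes with at least 5 covered positions in every pool of a comparison were tested by a logistic likelihood-ratio test with Benjamini-Hochberg adjustment. The tests were tried on simulated data. For tiles, these data were drawn without spread between pools, so that they could not show how such spread affects the p-values.

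Members, gene lists and the rule for named genes (members, hosts and neighbours, called tiles at the regions and flanks, and the 3 genes most like the listed gene that varied most) were chosen with earlier results of these data known. The 3 Slc38a4 tiles were singled out, and the logistic fits without IV1 added, after the values had been seen. Python 3.11.15, numpy 2.4.6, scipy 1.17.1, R 4.3.3 and limma 3.58.1 were used. Positions off the reference CpGs (0.664% to 2.36% per library) were kept. Non-CpG methylation was not analysed here.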

Additional observations from a re-analysis of the deposited data

Results flagged for a closer look

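A pool was set apart from the others of its group where its gap to the nearest of them was more than 0.829 (4 pools) or 0.71 (5 pools) of the range of the group, which chance gives in about 1 of 20 groups. This held for 3 of the 56 groups of values examined. Groups with fewer than 4 pools were not examined, so that no IV group was, and IV1 could not be flagged. At the Mcts2 region, IFC2 was at 97.4% while the other 3 IFC pools were at 100%. At the Inpp5f variant region, SO3 was at 92.3% and the other 3 SO pools with enough calls at 100%. In both cases the rest of the group was at the ceiling, so that a single unmethylated call in 38 and in 13 calls made the gap. In the Slc38a4 tile centred 43.1 kb downstream of the gene start, SOA2 was at 20.3% and the other SOA pools between 6.88% and 8.93%, with 33 calls in SOA2.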

How the results depend on the processing

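Of the 411 differences of regions and flanks between groups recomputed under other settings, 262 had enough pools for p to reach 0.05, and 257 of these kept their side of the threshold. With 1 pool left out this was 353 of 479, and 343 kept it. Differences that were never called changed sign in 78 of the 411 and 73 of the 479. The Mcts2 difference of IFC minus SO was 4.26 points with at least 20 covered positions (1 pool against 2), 6.73 with a replicate block (exact p = 0.125, the smallest possible), 10.6 in libraries below 10000000 calls and 2.32 with the interval widened, and from 5.16 to 7.72 with 1 pool left out, where p ranged from 0.0286 to 0.0714. IFC minus SOA at Mcts2 was 5.13, 4.46 (replicate block, exact p = 0.25), 4.78 and 1.10 points in the same order, and 4.41 to 5.34 with 1 pool left out, where p could not go below 0.0667. With the replicate block none of the 58 region and flank differences could reach 0.05. The block changed no count of called tiles or gene bodies. Deviations of same-numbered pools correlated weakly (r from -0.00902 to 0.0685), yet in 7 of 15 pairs both pools correlated best with their own number. The highest r were those of number 4, at 0.0685 in IFC vs SO, 0.0444 in SO vs SOA and 0.0384 in IFC vs SOA. The reason was not tested. Flank differences passed at 0.05 in 3 settings and with 1 pool left out in 2 cases. The settings were Nnat right flank, IFC minus SO, -10.2 points, and Slc38a4 right flank, SO minus SOA, 8.98 points, both as means of position percentages, and the 5-kb right flank of Peg13, SOA minus IV, 7.07 points. Without 1 pool, the first and the second were from -13.9 (without IFC2, exact p = 0.0357) to -6.13 and from 5.47 to 10.1 (without SOA4, exact p = 0.0179) points as pooled calls. Region minus flanks fell to 1.37 and 1.57 points at Mcts2, 2.5 and 2.70 at the Inpp5f variant, 1.84 and 0.203 at Peg13 and 1.94 and -2.77 at Slc38a4 with flanks of 10 and 5 kb, and to 1.91 at Peg13 on reference CpGs only.

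The called tile by Nnat was lost (0 tiles) in IFC vs SO and in SO vs SOA by the quasi-binomial F test, by limma, with 20 positions and at 30 points, and in IFC vs SO without IFC4 or SO5. In SOA vs IV, 0 to 1 tiles were called, with 1 without SOA2 or IV2. The 3 and 2 Slc38a4 tiles fell to 0 and 0 by quasi-binomial F and limma, 2 to 1 against SOA with 20 positions, an alternative count added after seeing the data. Against SO, the tile at 43.1 kb could not be tested with 20 positions, since SO1 had 18. The tile at 37.7 kb, with 20.9 points against SO, missed the limit of 30 points. Of the list, 0 to 1 gene bodies were called in IFC vs SOA, 1 without SOA2. Causes were not tested. Few calls per region limit all values: a sample with 10 calls cannot show a difference of a few points.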
